A study of Mus musculus with 12 samples.

Results

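Liver from refed Lpin1-/- mice was compared with liver from refed Lpin1+/+ mice across all genes. The comparison used 6 of the 12 RNA-Seq libraries of the study, 3 of each genotype, which were chosen by their labels and not by any measured value. The Lpin1-/- animals were fatty liver dystrophy (FLD) mice, which lack lipin 1 in every tissue, and the Lpin1+/+ animals were WT littermates. All were male mice of the BALB/cByJ strain aged 2 to 8 months, and both refed groups were fasted for 16 hours in single cages and then given chow for 5 hours. The other 6 libraries came from fasted mice that were not refed, 3 of each genotype. Refeeding began at the hour when the fast ended, so fasted and refed livers also differed by 5 hours in time of day. The libraries are called WT refed 1 to 3 and FLD refed 1 to 3 here, after the replicate numbers of the labels. Because lipin 1 is missing in every tissue of these mice, what its absence does in hepatocytes and what it does to the liver through adipose tissue or muscle cannot be told apart.

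Lipin 1 is a phosphatidic acid phosphatase, the enzyme that makes diacylglycerol on the way to triglycerides and phospholipids, and it also acts in the nucleus as a coactivator of PPARα, the receptor that turns on fatty acid oxidation in fasting. In normal liver a meal shuts off fatty acid oxidation, gluconeogenesis and the breakdown of amino acids. It also turns on the SREBP genes of lipid synthesis and the chaperones of the endoplasmic reticulum, where hepatocytes fold the plasma proteins they secrete. The refed comparison therefore asks how a liver without lipin 1 differs from a normal one once food has come back.

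Each value is an RPKM, the reads of a gene scaled to the length of its transcript and to the mapped reads of the library, which sets genes of different length on 1 scale. The depth of the 6 libraries, estimated from the ratios between low values, was 94.0 to 125.6 M mapped reads. A fold is the ratio of group means in RPKM, whereas a log2 fold change is the difference between group means of log2(RPKM + 1), Lpin1-/- minus Lpin1+/+, which understates the change of genes near 0. A gene is called altered where its limma adjusted p was under 0.05 over the 11507 genes tested, out of 22456 in the table. The library WT refed 2 stood apart from its group. Its distance to the other Lpin1+/+ libraries over the genes tested was 82.6 and 90.5, against 43.5 between WT refed 1 and WT refed 3, and 26.3 to 58.0 among the Lpin1-/- libraries. It had fewer genes listed at 0 (5204, against 6344 to 6702 in the other 5), and its markers of immune cells were high. Summed markers of Kupffer cells and macrophages came to 930.3 RPKM in WT refed 2, against 109 and 180.0 in the other WT libraries and 117 to 272 in Lpin1-/-. Those of T and NK cells came to 24.0, against 0.742 to 2.43 in the other 5 libraries. Neutrophil markers reached 92.0 in WT refed 2 and 4.44 to 57.9 in the others. Where a named gene lost its call without this library, the adjusted p without it is given.

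Lpin1 itself (ENSMUSG00000020593.15, GRCm38 chromosome 12 from 16535669 to 16610966) was 2.92, 0.784 and 2.76 RPKM in WT refed 1, 2 and 3, and 0.00573, 0.0238 and 0.00962 in FLD refed 1, 2 and 3. Every Lpin1-/- library lay below every Lpin1+/+ library, with a 165-fold difference in means. Lpin1 did not pass the test with a pseudocount of 1 (log2 fold change -1.55, SE 0.72, limma adjusted p = 0.231). It passed with a pseudocount of 0.1 (log2 fold change -4.13, limma adjusted p = 0.0268), and its adjusted p ranged from 0.0104 to 0.402 over the alternatives. The other 2 lipins, which share the phosphatase activity, had values that overlapped between genotypes, with means of 12.4 and 1.93 RPKM in Lpin1-/- and 14.0 and 2.41 in Lpin1+/+. Neither passed the test, with log2 fold changes of -0.16 (SE 0.45) and -0.22 (SE 0.19).

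Lpin1-/- refed liver had 767 altered genes, or 6.67% of those tested, with 299 higher (2.6%) and 468 lower (4.07%) than in Lpin1+/+. At an unadjusted p under 0.05 the count was 2585. The genotypes gave separate ranges for 3898 genes (33.9%), among them all 767 altered genes. The median absolute log2 fold change of the altered genes was 1.07, and it exceeded 2 for 41 of the higher and 49 of the lower genes. The higher genes took up 2.03% to 2.93% of the summed RPKM in Lpin1+/+ libraries and 9.05% to 12.1% in Lpin1-/- libraries. For the lower genes these shares were 3.74% to 5.79% and 1.52% to 1.65%. Lower genes made up 61.0% of the altered genes as deposited and 414 of 828 after each library was rescaled by its median ratio, so the balance between directions depends on the scaling. Without WT refed 2, 513 genes were altered (180 higher, 333 lower), of which 421 were among the 767. The count was 358 without WT refed 1, 384 without WT refed 3, and 253, 295 and 242 without FLD refed 1, 2 and 3.

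The 12 genes with the largest rise included both metallothioneins, several metabolic enzymes and the leptin receptor. Mt2, a metallothionein that binds zinc and copper, was 71.0, 141 and 48.1 RPKM in the Lpin1+/+ libraries and 5273, 1246 and 2731 in the Lpin1-/- libraries. Its neighbor Mt1 was 198, 380.2 and 115 against 10108, 5042 and 5254, and was among the most abundant transcripts of Lpin1-/- liver. The log2 fold changes of Mt2 and Mt1 were 5.04 (SE 0.60, limma adjusted p = 0.00125) and 4.96 (SE 0.53, limma adjusted p = 0.000877). Nnmt, which methylates nicotinamide with S-adenosylmethionine, was 69.7, 34.0 and 5.03 RPKM in Lpin1+/+ and 655, 855 and 845 in Lpin1-/-, a 21.7-fold difference. Its Lpin1+/+ values spread over more than an order of magnitude and still lay well below the lowest Lpin1-/- value. Lepr, the leptin receptor, was 1.02, 0.331 and 0.102 RPKM in Lpin1+/+ and 26.7, 32.7 and 20.4 in Lpin1-/-, with the largest ratio of means among these genes (55.0-fold). Fam107a, an actin-associated protein, showed a similar shift from 0.781, 0.293 and 0.117 RPKM to 24.4, 17.4 and 15.5. Cyp2b10, a drug-metabolizing cytochrome P450 induced through the receptor CAR, was 27.1, 5.37 and 11.7 against 266, 268 and 244. Its 3 Lpin1-/- values were close together, while the Lpin1+/+ values differed by several fold.

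The remaining genes with a large rise included Got1, the cytosolic aspartate aminotransferase, at 91.8, 76.1 and 25.2 RPKM in Lpin1+/+ and 1671, 739 and 721 in Lpin1-/-. FLD refed 1 was the highest library here, as it was for Mt1, Mt2 and Scd1. Scd1, the stearoyl-CoA desaturase, was 9.80, 51.1 and 94.3 against 969, 367 and 379. Etnppl, which breaks down phosphoethanolamine, was 39.8, 12.0 and 37.7 against 365, 282 and 236, and Fam134b, a receptor for autophagy of the endoplasmic reticulum, was 15.0, 17.3 and 13.5 against 342, 108 and 118. Gstt3, a glutathione transferase, was 9.29-fold higher. Eif4ebp3, a repressor of translation initiation, was 7.08-fold higher, but it lies in the locus of a neighboring gene, so its reads may not all be its own. All of these but 2 were altered in each of 12 fits that left out 1 library. Scd1 lost the call without FLD refed 1 (limma adjusted p = 0.075), and Eif4ebp3 kept it in 7 of the 12, losing it also without WT refed 2 (limma adjusted p = 0.0723).

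The 12 genes with the largest fall were led by Derl3, a component of the machinery that removes misfolded proteins from the endoplasmic reticulum. It was 66.3, 6.53 and 82.6 RPKM in Lpin1+/+ and 1.16, 0.765 and 0.671 in Lpin1-/-, so that even the low WT refed 2 exceeded every Lpin1-/- library. Its log2 fold change was -4.23 (SE 0.74, limma adjusted p = 0.0091) with WT refed 2 and -5.34 (limma adjusted p = 0.000483) without it. Vnn1, the pantetheinase of coenzyme A turnover and a PPARα target, was 39.7, 11.1 and 32.2 RPKM in Lpin1+/+ and 0.316, 0.703 and 1.19 in Lpin1-/-. Bdh1, which interconverts the ketone bodies, was 187, 188 and 299.9 against 11.9, 18.4 and 22.7. Ddah1, which degrades asymmetric dimethylarginine, was 11.3, 14.8 and 13.3 against 0.889, 1.06 and 0.384. In all 3 genes the lowest Lpin1+/+ library was several times the highest Lpin1-/- library.

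Nrep, a small neuronal regeneration-related protein, was 13.4, 14.6 and 19.0 RPKM in Lpin1+/+ and 0.572, 0.751 and 0.896 in Lpin1-/-, with the smallest adjusted p of the named genes (0.000282, limma). Gm4952, an unnamed gene model annotated on chromosome 19, was 14.3-fold lower. Fabp1, the abundant fatty acid binding protein of hepatocytes, was 8837, 4563 and 13593 against 848, 813 and 1417, an 8.77-fold difference in one of the most abundant transcripts. Dio1, the deiodinase that activates thyroid hormone, was 60.4, 249.9 and 44.4 RPKM in Lpin1+/+ and 1.12, 10.3 and 12.3 in Lpin1-/-. Dbp, a transcription factor of the circadian output, was 27.4, 84.8 and 148 against 4.63, 12.8 and 8.97. Dio1, Sqle and Dbp were the least firm of the 12. Dio1 kept the call in 3 of 12 fits that left out 1 library and lost it without WT refed 2, its highest library (log2 fold change -2.95, limma adjusted p = 0.141) and with the replicate number as a block (limma adjusted p = 0.0784). Dbp kept it in 7 and reached a limma adjusted p of 0.122 without FLD refed 1 and 0.0766 without WT refed 2. Sqle, whose values are given below, kept it in 4. The remaining 3 genes of this group, Idi1, Sqle and Msmo1, belong to cholesterol synthesis.

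**Figure D1:**
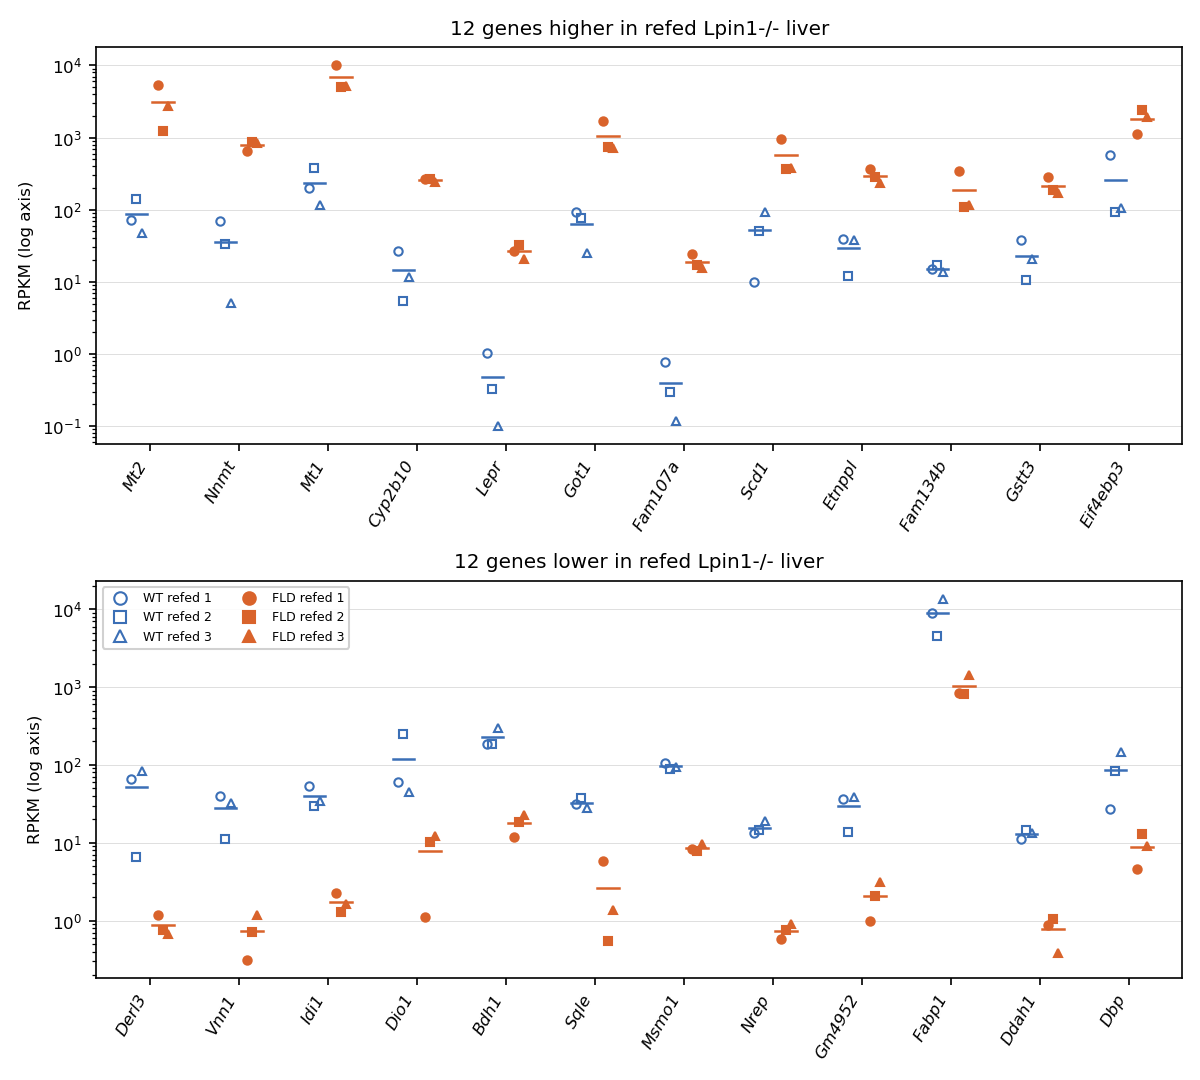
RPKM on a log axis in each of the 6 refed libraries for the 12 genes with the largest rise (upper panel) and the 12 with the largest fall (lower panel) among altered genes; open symbols are Lpin1+/+ libraries, filled symbols Lpin1-/- libraries, the symbol shape is the replicate number, and the short lines are group means. The groups do not overlap in any of the 24 genes, and for Derl3 the WT refed 2 square at 6.53 RPKM lies well below the other Lpin1+/+ symbols.

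Cholesterol synthesis was lower as a group. Of 20 enzymes of the pathway, all tested, 12 fell in Lpin1-/- refed liver and none rose, with a median log2 fold change of -1.61 for the 20, against -0.07 for all genes tested. Idi1, the isomerase that makes the building block dimethylallyl pyrophosphate, was 53.6, 29.9 and 34.5 RPKM in Lpin1+/+ and 2.27, 1.30 and 1.63 in Lpin1-/-, the largest fall of the pathway (22.7-fold). Sqle, the squalene epoxidase, was 31.1, 37.4 and 27.7 against 5.87, 0.542 and 1.36. The spread among the Lpin1-/- values of Sqle was wide, and its log2 fold change of -3.49 only just passed (limma adjusted p = 0.0441). Msmo1, a sterol C4-methyl oxidase, was 106, 89.7 and 95.1 against 8.39, 7.83 and 9.65, with little spread in either group. The firmest calls were Mvd (log2 fold change -2.28, SE 0.27, limma adjusted p = 0.00119) and Fdft1 (-2.06, SE 0.25, limma adjusted p = 0.00148), the mevalonate pyrophosphate decarboxylase and the squalene synthase.

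The steps on either side of these fell as well. Hmgcs1, the cytosolic HMG-CoA synthase at the entry of the pathway, was 121, 63.1 and 57.8 RPKM against 14.9, 11.9 and 11.4. Mvk, Cyp51, Nsdhl, Fdps and Sc5d were altered too, from 6.37-fold lower in Nsdhl to 1.97-fold lower in Sc5d. Lss, the lanosterol synthase, and Dhcr7, the last reductase, did not pass (log2 fold change -1.13, limma adjusted p = 0.0605, and -1.11, limma adjusted p = 0.0832). Tm7sf2, a sterol C14-reductase, was 81.0 RPKM ± 6.91 in Lpin1-/- and 61.3 ± 12.5 in Lpin1+/+ (SD, n = 3) and did not pass. With 1 library left out at a time, 6 to 14 enzymes were altered, and without WT refed 2 the count was 11 with a median log2 fold change of -1.79. Sqle was lost without it (limma adjusted p = 0.0994), and Lss passed (limma adjusted p = 0.0452). With the replicate block Lss passed as well, and 13 enzymes were altered.

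A second list held genes of sterol regulation and transport. Of 13 listed, 12 were tested, 5 fell and 1 rose, and the median log2 fold change was -0.42. Insig1, which holds SREBPs in the endoplasmic reticulum and is itself an SREBP target, was 71.0, 58.0 and 98.2 RPKM in Lpin1+/+ and 9.13, 10.1 and 11.7 in Lpin1-/-. Srebf2, which encodes SREBP-2, was 15.0, 14.6 and 13.6 RPKM against 6.53, 4.42 and 4.56. Stard4, a cholesterol carrier, was 3.79-fold lower. Insig2, the partner of Insig1 that insulin represses in liver, was the one gene of the list that rose, from 354, 242 and 146 RPKM to 920.0, 744 and 1065 (log2 fold change 1.95, SE 0.46, limma adjusted p = 0.0293). The transporters Abca1 and Abcg5 and the ubiquitin ligase Mylip did not pass, with log2 fold changes of 1.08, 0.29 and 0.53. Of these 6 calls, Insig2 was lost without WT refed 2 (limma adjusted p = 0.0602) and with the replicate block (limma adjusted p = 0.0597), and the other 5 were kept in both.

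For part of the sterol genes the genotype effect differed between fasted and refed liver. These livers came from different mice and different hours of the day, so feeding and time of day cannot be told apart. The limma contrast of the genotype effect in refed liver minus that in fasted liver was past the threshold for 147 genes (1.28% of those tested), and for 81 when the replicate number was a block. It included 5 of the 20 enzymes (Msmo1, Mvd, Fdft1, Fdps and Cyp51) and 3 of the 12 sterol-regulated genes, Insig1 among them. Insig1 was 20.2, 18.2 and 36.0 RPKM in fasted Lpin1+/+, 172, 112 and 56.4 in fasted Lpin1-/-, 71.0, 58.0 and 98.2 in refed Lpin1+/+, and 9.13, 10.1 and 11.7 in refed Lpin1-/-. Lpin1-/- was therefore above Lpin1+/+ in the fasted groups and below it in the refed groups, and the genotype effects differed by -4.81 (limma adjusted p = 0.00332). Mvd was 1.84 RPKM ± 0.821 in fasted and 18.1 ± 3.45 in refed Lpin1+/+ (SD, n = 3), and 1.83 ± 0.833 and 2.90 ± 0.540 in fasted and refed Lpin1-/-. The genotypes were alike in the fast for Mvd (log2 fold change -0.01), and its contrast was -2.28 (limma adjusted p = 0.019). By contrast, Sc5d and Hmgcs1 were lower in Lpin1-/- in both states, and their contrasts of -0.12 and -0.99 did not pass. The genotype difference of Idi1 was not shown to differ between states (contrast -4.03, limma adjusted p = 0.0666), and FLD fasted 1 had 13.2 RPKM of Idi1 and the other 2 fasted Lpin1-/- libraries 1.69 and 0.825.

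**Figure D2:**
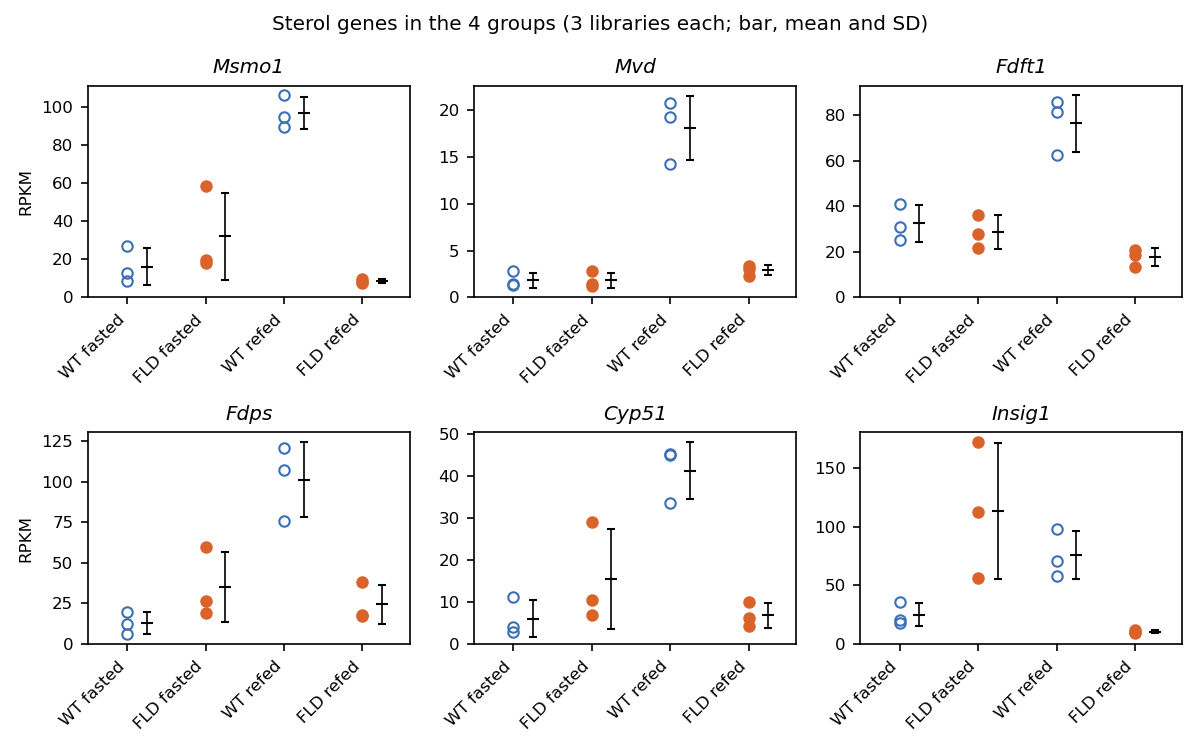
RPKM of 6 sterol genes whose genotype effect differed between refed and fasted liver, in the 4 groups with 3 libraries each; circles are libraries (open, Lpin1+/+; filled, Lpin1-/-), and the bars beside them are the mean and SD. Refed Lpin1+/+ liver is the highest group for all but Insig1, and the refed Lpin1-/- mean is under the fasted Lpin1-/- mean for all but Mvd. FLD fasted 1 is the highest fasted Lpin1-/- library for all 6 genes, with 58.5 RPKM of Msmo1 against 19.6 and 18.3 in FLD fasted 2 and 3. For Mvd, Fdps and Cyp51 the fasted and refed Lpin1-/- libraries overlap.

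Genes of the endoplasmic reticulum formed the next group. Of 34 chaperones, folding enzymes and sensors of the unfolded protein response, all tested, 7 fell and none rose, and the estimate was below 0 for 32, with a median log2 fold change of -0.70. The group is shown with promoter sequence because part of its members carry a known element. ERSE, the endoplasmic reticulum stress element that ATF6 binds with NF-Y, is spelled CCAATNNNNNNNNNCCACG and was searched on both strands of windows from 250 bases before to 50 after the start of each gene (RefSeq, GRCm38.p6). It was found in 9 of the 26 promoters of this list that the table holds (34.6%), against 37 of 27025 promoters in all (0.137%). The list holds genes known as targets of this response, so the share is a description and no independent result. The element was in the windows of 4 altered genes, which are given 5′ to 3′ with its letters in capitals.
Derl3, chr10:75893148-75893447, plus strand: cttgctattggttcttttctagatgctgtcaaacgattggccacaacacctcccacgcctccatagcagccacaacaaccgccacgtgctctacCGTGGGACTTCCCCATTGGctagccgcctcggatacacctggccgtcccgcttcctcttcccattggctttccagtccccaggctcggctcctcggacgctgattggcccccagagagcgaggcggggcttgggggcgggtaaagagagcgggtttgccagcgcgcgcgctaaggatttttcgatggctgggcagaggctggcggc
Creld2, chr15:88819396-88819695, plus strand: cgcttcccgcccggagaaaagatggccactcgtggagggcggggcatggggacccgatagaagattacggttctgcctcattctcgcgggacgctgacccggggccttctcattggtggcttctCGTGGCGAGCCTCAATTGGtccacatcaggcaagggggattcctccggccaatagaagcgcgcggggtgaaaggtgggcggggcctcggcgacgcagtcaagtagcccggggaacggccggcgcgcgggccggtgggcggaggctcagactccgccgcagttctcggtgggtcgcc
Hsp90b1, chr10:86705395-86705694, minus strand: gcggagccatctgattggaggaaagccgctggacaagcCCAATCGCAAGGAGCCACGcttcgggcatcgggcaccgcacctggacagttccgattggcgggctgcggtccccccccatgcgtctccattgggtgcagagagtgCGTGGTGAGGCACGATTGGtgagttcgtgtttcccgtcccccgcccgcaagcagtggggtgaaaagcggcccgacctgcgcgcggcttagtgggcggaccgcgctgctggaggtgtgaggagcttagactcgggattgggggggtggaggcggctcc
Pdia6, chr12:17266339-17266638, plus strand: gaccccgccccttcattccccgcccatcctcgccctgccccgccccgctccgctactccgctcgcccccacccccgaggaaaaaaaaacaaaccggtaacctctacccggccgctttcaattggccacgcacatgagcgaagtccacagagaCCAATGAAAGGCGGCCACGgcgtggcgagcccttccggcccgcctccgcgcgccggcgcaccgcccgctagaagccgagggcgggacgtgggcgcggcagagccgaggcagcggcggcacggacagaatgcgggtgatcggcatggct
The element lies on the opposite strand in Derl3 and Creld2, on the given strand in Pdia6, and once on each strand in Hsp90b1. It ends 138 bases before the annotated start in Derl3, 108 in Creld2, 80 in Pdia6, and 194 and 89 in Hsp90b1.

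These genes differed widely in the size of their fall. Next to the 59.7-fold fall of Derl3, Creld2, a secreted disulfide isomerase, was 469, 195 and 603 RPKM in Lpin1+/+ and 41.1, 128 and 108 in Lpin1-/-. Hsp90b1, the chaperone GRP94, was 890.0, 583 and 1045 against 296, 379 and 378. Pdia6, a disulfide isomerase, was 369.6, 442 and 462 against 133, 172 and 176. Lpin1+/+ and Lpin1-/- libraries did not overlap in any of them, and FLD refed 1 was the lowest library for Creld2, Hsp90b1 and Pdia6. The disulfide isomerases Pdia4 (2.70-fold), Pdia3 (2.49-fold) and Txndc5 (2.02-fold) fell as well, and no element was found in the windows of these 3. Hspa5, the master chaperone BiP, carries the element and was 1336, 956 and 1693 RPKM against 521, 854 and 801. Its groups did not overlap, but it did not pass (log2 fold change -0.87, SE 0.28, limma adjusted p = 0.0919). Sdf2l1 and Fkbp11, with log2 fold changes of -2.09 and -2.22, did not pass either (limma adjusted p = 0.0647 and 0.0655). Xbp1 and Ern1, which encode a transcription factor and a sensor of the response, had log2 fold changes of -0.26 (SE 0.24) and -0.09 (SE 0.37) and did not pass. Herpud1, a membrane protein of the degradation complex, was one of 2 with a positive estimate (0.87, limma adjusted p = 0.248).

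Between fasted genotypes the list looked different. The median log2 fold change of the 34 was -0.06 between fasted genotypes, where 5 were altered and 18.8% of all genes tested were. Hsp90b1 was 205 RPKM ± 15.1 and 207 ± 41.7 in fasted Lpin1+/+ and Lpin1-/- (SD, n = 3), and Pdia4 was lower in fasted Lpin1-/- too (log2 fold change -1.40, limma adjusted p = 0.00492). No gene of the list passed the contrast between states, the nearest being Pdia6 (-1.63, limma adjusted p = 0.0666), so a difference between states was not shown. Of the 7 calls, Derl3 and Pdia4 held in all 12 fits that left out 1 library, and 2 to 12 genes of the list were altered over these fits. Without WT refed 2, Pdia3 was lost (limma adjusted p = 0.0803, and 0.0558 with the replicate block), and 7 genes of the list were altered. Among 22 targets of the integrated stress response, which shares the kinase PERK, 1 fell (4.55%, against 6.67% of all genes tested): Inhbe, a hepatokine of the activin family, which was 6.21-fold lower and had 3.42, 12.1 and 27.1 RPKM in Lpin1-/-. Atf4 and its target Trib3 had log2 fold changes of 0.05 and -0.52. Of 18 cytosolic and mitochondrial heat shock proteins (5.56% altered), Cryab fell (2.77-fold, limma adjusted p = 0.0608 with the replicate block and 0.114 without WT refed 2) and the others did not pass, with a median of -0.28. Without WT refed 2 the median was -0.60 and 4 other genes of the list fell, the chaperones Hsp90aa1, Hsp90ab1 and Hsph1 and the cochaperone Stip1 (limma adjusted p = 0.0154 to 0.0366).

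**Figure D3:**
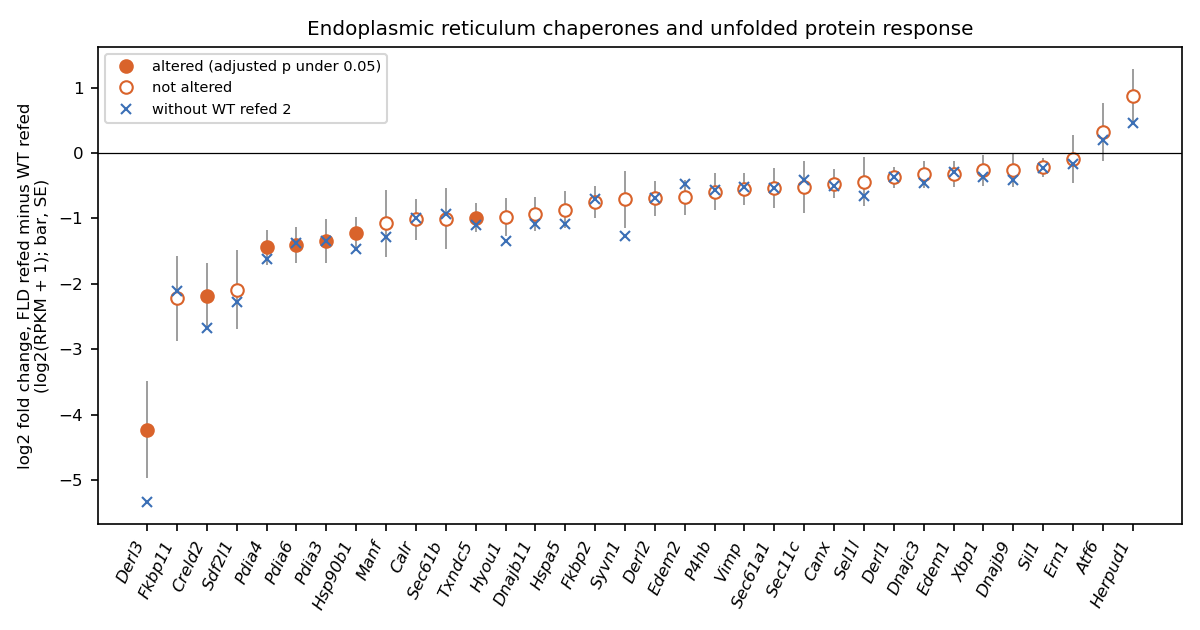
Log2 fold change of each of the 34 genes of the endoplasmic reticulum list, Lpin1-/- minus Lpin1+/+ in refed liver on the log2(RPKM + 1) scale, with its SE; filled circles passed the test, open circles did not, and crosses are the values without WT refed 2. All but 2 genes lie below 0, and leaving out WT refed 2 moved Derl3 from -4.23 to -5.34.

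The urea cycle was higher. Of its 8 genes, all tested, 5 rose and none fell, with a median log2 fold change of 1.60. Ass1, the argininosuccinate synthase, was 901, 548 and 754 RPKM in Lpin1+/+ and 3286, 3061 and 3165 in Lpin1-/-. Asl, the next enzyme, was 348, 259 and 249 against 1093, 1211 and 1206, and Arg1, the arginase that releases urea, was 1449, 834 and 1029.9 against 3431, 4304 and 4309. In these 3 abundant transcripts every Lpin1-/- library was well above every Lpin1+/+ library. Nags, which makes the activator of the first step, was 46.4, 43.0 and 49.6 against 109, 110.1 and 106 (log2 fold change 1.21, SE 0.16, limma adjusted p = 0.00226). Slc25a15, the mitochondrial ornithine carrier, was 2.88-fold higher. Cps1, the first enzyme, was 501, 292 and 347 RPKM against 1830.4, 942 and 866 and did not pass (limma adjusted p = 0.127), with FLD refed 1 far above the other 2 Lpin1-/- libraries. Otc was the exception in direction, with 194, 187 and 236 RPKM in Lpin1+/+ and 104, 132 and 169 in Lpin1-/- (log2 fold change -0.63, limma adjusted p = 0.166). In the fits that left out 1 library 4 to 6 of the 8 were altered, and 5 without WT refed 2.

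Part of the enzymes of amino acid breakdown were higher. Of 47 tested, 10 rose and none fell, while 19 had an estimate below 0 and the median log2 fold change was 0.14 (0.01 without WT refed 2). Aass, the first enzyme of lysine breakdown, was 98.2, 54.7 and 66.9 RPKM in Lpin1+/+ and 744, 534 and 506 in Lpin1-/- (log2 fold change 3.02, SE 0.36, limma adjusted p = 0.0013). Sdsl and Sds, a pair of serine and threonine dehydratases, were 6.30-fold and 3.10-fold higher. Tdo2, which begins the breakdown of tryptophan, was 990.5, 635 and 974 RPKM in Lpin1+/+ and 2232, 2389.6 and 2519.8 in Lpin1-/-. Others were Got1, described above, Hgd of tyrosine breakdown, the glutaminase Gls2, the alanine-glyoxylate aminotransferase Agxt and the kynureninase Kynu, with log2 fold changes of 1.02 to 1.75 apart from Got1. Hgd, Gls2, Agxt and Kynu lost the call without WT refed 2 (limma adjusted p = 0.0734 to 0.109), as Gls2 did with the replicate block (limma adjusted p = 0.0649), and 7 of the list were altered without that library.

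Methyl-group metabolism, which feeds on the same amino acids, had 5 genes higher and 1 lower of 20 tested. Cth, the cystathionine γ-lyase that makes cysteine, was 262, 180.4 and 199.8 RPKM against 1897, 1520.3 and 1742 (log2 fold change 3.01, SE 0.26, limma adjusted p = 0.000419). Mat1a, which makes S-adenosylmethionine in hepatocytes, was 1469, 657 and 721 against 5594, 3716 and 3477. Gnmt, which consumes it, was 1289, 1012 and 1082 against 2101, 2876 and 2800.4. Nnmt, a further consumer, is described above. Ahcy, which removes the product of these reactions, was 3.72-fold higher but listed at 1.67 to 14.2 RPKM only; it has many near-identical pseudogenes, so its count is uncertain. Gamt, which uses S-adenosylmethionine to make creatine, was the one that fell (2.67-fold). Without WT refed 2, 3 of these 6 were altered, and Mat1a (limma adjusted p = 0.104), Gnmt (limma adjusted p = 0.0655) and Ahcy (limma adjusted p = 0.0871) were not. With the replicate block 3 were altered too, and Gnmt, Mat1a and Gamt were not (limma adjusted p = 0.0502 to 0.0677). Part of these genes differed in the fast as well. Cth was 1913 RPKM in fasted Lpin1-/- and 372 in fasted Lpin1+/+, and no gene of the urea cycle or amino acid breakdown passed the contrast between states.

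**Figure D4:**
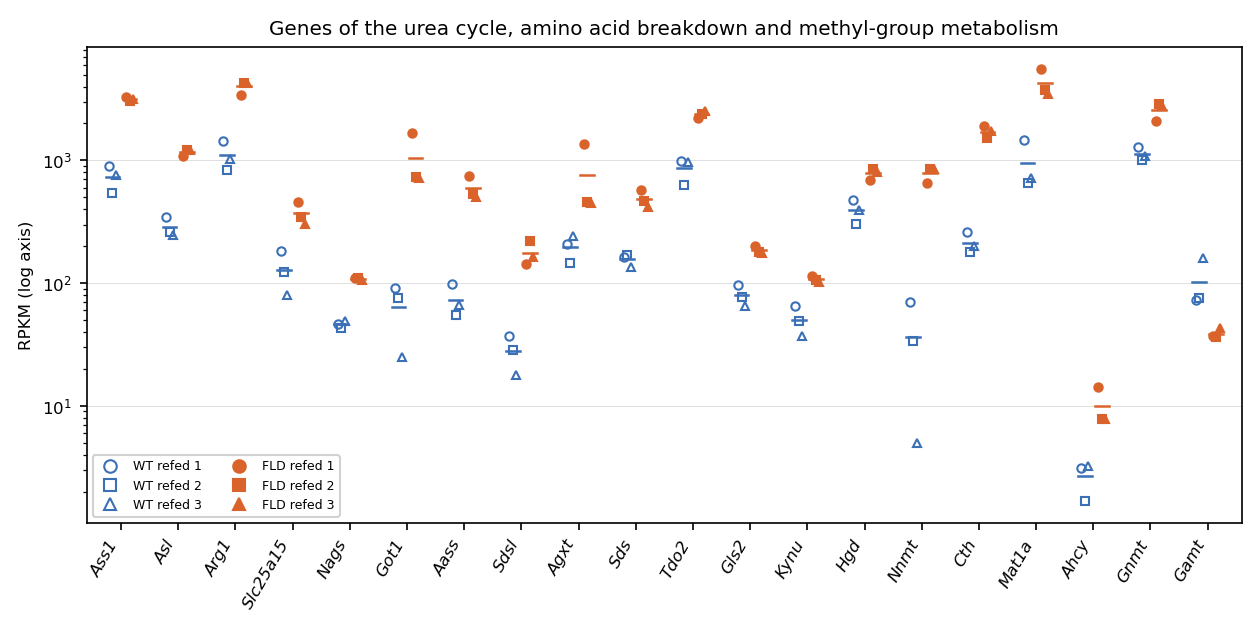
RPKM on a log axis in each refed library for 20 altered genes of the urea cycle, amino acid breakdown and methyl-group metabolism, in that order; open symbols are Lpin1+/+ libraries, filled symbols Lpin1-/- libraries, and short lines are means. All but Gamt are higher in Lpin1-/-, and FLD refed 1 is the highest Lpin1-/- library for Ass1, Slc25a15, Got1, Aass, Sds, Agxt, Gls2, Kynu, Cth, Mat1a and Ahcy.

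Fatty acid oxidation was lower. Of 24 genes tested, 6 fell and none rose, and 21 had an estimate below 0, with a median log2 fold change of -0.64. Ehhadh, the peroxisomal bifunctional enzyme, was 373, 172 and 187 RPKM in Lpin1+/+ and 53.5, 65.9 and 74.2 in Lpin1-/- (log2 fold change -1.82, SE 0.27, limma adjusted p = 0.00423). Acaa1b, a peroxisomal thiolase, was 639, 386 and 847 against 124, 90.9 and 177, though its paralog Acaa1a may share some of its reads and fell 2.38-fold. Hadh, Eci1 and Decr1 of the mitochondrial pathway fell 2.55-fold, 2.43-fold and 2.24-fold, and Decr1 lost the call with the replicate block (limma adjusted p = 0.0707). Cpt1a, the gate for entry into mitochondria, was 71.1, 68.5 and 92.6 RPKM against 74.6, 29.8 and 33.1, and did not pass (limma adjusted p = 0.35). Among 24 targets of PPARα outside this list, 4 fell (Bdh1, Vnn1, Fabp1 and Aldh3a2, a fatty aldehyde dehydrogenase) and none rose. Ppara itself did not pass (log2 fold change -0.47, SE 0.41). Without WT refed 2, 9 oxidation genes and 6 PPARα targets were altered, with medians of -0.92 and -0.70. Over all fits that left out 1 library, 2 to 9 oxidation genes and 3 to 6 PPARα targets were altered. With the replicate block the counts were 5 and 4. In the fast the corresponding medians were -1.13 and -1.70, with 16 and 10 genes altered. No oxidation or PPARα gene passed the contrast between states.

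Lipid storage and synthesis showed a mixed pattern. Of 17 lipid droplet proteins and lipases, 3 rose and 2 fell. Plin4, a droplet coat protein best known from adipocytes, was 1.11, 0.357 and 0.920 RPKM in Lpin1+/+ and 13.4, 7.40 and 7.64 in Lpin1-/-. Pnpla2, the lipase ATGL, was 43.8, 36.4 and 35.4 against 217, 144 and 140.3, and Plin5, which links droplets to mitochondria, was 52.0, 28.1 and 47.9 against 133, 144 and 151. All 3 were altered in each of the 12 fits that left out 1 library. Adipocyte markers were close to 0 in all 6 libraries (summed level 0.0529 to 0.290 RPKM). Cideb, which lipidates lipoproteins, and Hsd17b11 fell 2.07-fold and 2.02-fold. Of 11 genes of triglyceride synthesis, the pathway that contains the lipin step, Gpat4 and Dgat1 rose. Gpat4, which makes lysophosphatidic acid at the endoplasmic reticulum, was 59.6, 51.2 and 60.6 RPKM against 313, 174 and 177. Dgat1, which makes the triglyceride itself, was 15.4, 17.0 and 17.2 against 23.8, 27.6 and 29.9. Dgat1 and Hsd17b11 lost the call without WT refed 2 (limma adjusted p = 0.0515 and 0.0506).

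Of 16 genes of fatty acid synthesis and desaturation, Scd1 rose and Fads2, Elovl5 and Acss2 fell. Fads2, the desaturase of polyunsaturated fatty acids, was 258, 326 and 549 RPKM against 129, 91.2 and 125, opposite in direction to the desaturase Scd1. Fasn, the fatty acid synthase, was 32.2 RPKM ± 9.76 in Lpin1-/- and 17.4 ± 3.36 in Lpin1+/+ and did not pass (limma adjusted p = 0.262), nor did Srebf1 (log2 fold change -0.58, SE 0.49). The cholesterol and fatty acid arms of lipid synthesis had medians of -1.61 and 0.13. Among 22 apolipoproteins and genes of lipoprotein handling no gene passed. The genotypes gave separate ranges for 8 of them, close to the 33.9% of all genes tested.

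Single genes of sugar metabolism changed. Of 16 glycolytic genes 3 rose, with Pgam1, the phosphoglycerate mutase, among them (1.63-fold). Pgam1 lost the call without WT refed 2 (limma adjusted p = 0.0929) and with the replicate block (limma adjusted p = 0.0552). With the block 0 glycolytic genes were altered, and without WT refed 2 the count was 1. It ranged from 0 to 4 over the fits that left out 1 library. Of 16 genes of gluconeogenesis and targets of FoxO or glucocorticoids (6.25% altered, against 6.67% of all genes tested), 13 had a positive estimate and 1 rose, Slc37a4, the glucose 6-phosphate carrier (log2 fold change 1.44, limma adjusted p = 0.0473, 0.131 without WT refed 2 and 0.0800 with the replicate block). Igfbp1, which insulin represses, was 13.5, 7.45 and 7.91 RPKM against 364, 42.6 and 78.5, and did not pass, with FLD refed 1 far above the others (log2 fold change 3.39, SE 1.02, limma adjusted p = 0.0739). Of 10 glycogen genes, Ppp1r3g, which directs a phosphatase to glycogen, rose from 0.256, 0.196 and 0.205 RPKM to 6.88, 4.41 and 3.34, and Phka2 fell 2.34-fold (limma adjusted p = 0.0695 without WT refed 2). The difference in Ppp1r3g was smaller than that in the fast, where Lpin1-/- reached a mean of 77.1 RPKM (contrast -3.07, limma adjusted p = 0.0372).

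Among 22 clock genes 2 rose and 3 fell. Cry1, a repressor of the clock, was 3.64, 2.70 and 5.30 RPKM in Lpin1+/+ and 19.5, 12.6 and 14.1 in Lpin1-/-, and Arntl, which encodes BMAL1, was 5.05, 2.18 and 0.812 against 13.9, 7.92 and 10.4. Dbp, Per3 and Nr1d1, which BMAL1 drives, were 9.84-fold, 5.46-fold and 2.16-fold lower. Cry1 was altered in all 12 fits that left out 1 library, while Arntl was altered in 4, Nr1d1 in 5, and Dbp and Per3 in 7, and 2 of the list were altered without WT refed 2, where Arntl, Dbp and Per3 were not (limma adjusted p = 0.0588 to 0.0955). The E-box CACGTG was found in 5 of the 18 clock promoters in the RefSeq table (27.8%) and in 8.09% of all, and the D-box core TTANGTAA in 1 (5.56%) and 2.72%. The E-box share was 11.9% among the genes tested, 11.2% among the altered higher genes and 13.0% among the altered lower genes. The list holds known clock genes, so its share is a description and no independent result. Of 17 immediate early genes (5.88% altered, against 6.67% of all genes tested), Dusp1, a MAP kinase phosphatase, rose (4.88-fold) and the others did not pass.

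Metal handling and xenobiotic metabolism had further altered genes. Besides Mt1 and Mt2, Slc39a14, a zinc and iron importer, rose among 12 metal genes (35.4, 22.8 and 37.9 RPKM against 265, 88.1 and 79.7), but it kept the call in only 2 of the 12 fits that left out 1 library (limma adjusted p = 0.128 without WT refed 2 and 0.0640 with the replicate block). Of 34 cytochrome P450 genes 5 rose and 1 fell. After Cyp2b10 came Cyp2c70, which makes muricholic acids, at 2.90-fold, and Cyp3a44, Cyp3a13 and Cyp3a16 at 2.42-fold, 2.54-fold and 2.04-fold. The Cyp3a genes are close paralogs whose reads may be shared, and Cyp3a13 and Cyp3a16 lost the call without WT refed 2 (limma adjusted p = 0.0878 and 0.0701). With the replicate block 3 P450 genes were altered, and these 3 Cyp3a genes were not (limma adjusted p = 0.0513 to 0.0695). Of 36 conjugation enzymes 4 rose (Gstt3, Sult1d1, Sult1a1 and Ugt2a3) and 3 fell, Gstm4 and Ugt2b34 among them, and Ugt2a3 and Ugt2b34 lost the call with the replicate block (limma adjusted p = 0.0506 and 0.0749) and without WT refed 2 (limma adjusted p = 0.0979 and 0.0817). Gstm4 was 58.1, 53.4 and 51.5 RPKM against 9.51, 15.3 and 15.1 (log2 fold change -1.98, SE 0.22, limma adjusted p = 0.00109). None of 18 antioxidant and NRF2 target genes passed, and 16 of them had an estimate below 0. Without WT refed 2, Hmox1 passed as higher (log2 fold change 2.24, limma adjusted p = 0.0226) and Cat as lower (log2 fold change -1.47, limma adjusted p = 0.0352). Of 24 genes of bile acid synthesis and transport (8.33% altered, against 6.67% of all genes tested), the organic anion carrier Slco1a4 rose (8.24-fold, limma adjusted p = 0.0755 without WT refed 2) and Nr0b2, the repressor SHP, fell (2.27-fold, limma adjusted p = 0.0663 with the replicate block), and Cyp27a1 did not pass (log2 fold change 1.04, limma adjusted p = 0.084). In the growth hormone and IGF axis Igfals, the subunit that carries IGF-1 in plasma, fell 3.75-fold as 1 of 14 (7.14%). Hsd3b5 and Cux2, a male-biased and a female-biased gene of mouse liver, were 22.0-fold lower and 51.2-fold higher in means and did not pass (limma adjusted p = 0.0589 and 0.0592; Hsd3b5 passed without WT refed 2, limma adjusted p = 0.00343), with FLD refed 1 at 7.70 RPKM of Cux2 and the other 2 Lpin1-/- libraries at 1.40 and 1.39.

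Immune and acute phase genes are given beside the high values of WT refed 2. Of 22 interferon and antigen presentation genes Isg15 and Ifit1 fell (9.09%, against 6.67% of all genes tested), and 21 had an estimate below 0, with a median log2 fold change of -1.53 that was -0.22 without WT refed 2. Isg15, a ubiquitin-like protein induced by interferon, was 44.8, 151 and 115 RPKM in Lpin1+/+ and 8.76, 13.4 and 12.6 in Lpin1-/-. It kept the call without WT refed 2 (log2 fold change -2.55, limma adjusted p = 0.0469), whereas Ifit1 did not (limma adjusted p = 0.107). None of 25 acute phase genes passed. The serum amyloid genes Saa1 and Saa2, which are nearly identical, were 863 and 262 RPKM in WT refed 1, 17751 and 12051 in WT refed 2, and 175 and 67.7 in WT refed 3, against 206 to 474 and 87.2 to 196 in Lpin1-/-. Lcn2, a neutrophil and hepatocyte acute phase protein, was 6039 RPKM in WT refed 2 and 31.6 to 56.1 in the other 5 libraries. With WT refed 2 left out, the median of the acute phase list went from 0.14 to 0.68 and no gene of it was altered. The part of immune cells or of inflammation in WT refed 2 in these values was not tested. In whole liver, fewer cells of a type and less RNA per cell cannot be told apart.

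In the main fit no tested marker of any cell type was altered. No adipocyte or pancreatic acinar marker reached the filter, so these 2 lists were not tested. Without WT refed 2, 1 sinusoidal endothelial marker was altered. After rescaling by the median ratio, 1 marker each of hepatocytes, sinusoidal endothelium and neutrophils was altered. The hepatocyte markers, led by Alb, summed to 55120 and 69170 RPKM in the other 2 Lpin1+/+ libraries, to 40160 in WT refed 2 and to 71150 to 75590 in Lpin1-/-, so the defining markers of liver were present in every library. The summed ranges in Lpin1+/+ and Lpin1-/- were 77.7 to 215 and 165 to 209 RPKM for 9 stellate cell and fibroblast markers, 34.1 to 71.0 and 45.4 to 62.5 for 7 sinusoidal endothelial markers, 31.7 to 103 and 19.2 to 27.8 for 6 cholangiocyte markers, 6.82 to 12.3 and 12.5 to 68.6 for 6 B and plasma cell markers, and 501 to 866 and 235 to 722 for 5 erythroid markers. The hepatocyte and B cell sums were higher and the cholangiocyte sums lower in every Lpin1-/- library than in any Lpin1+/+ library. Of the 9 stellate cell and fibroblast markers 6 had an estimate below 0 and 3 above, with a median of -0.75 (-0.35 without WT refed 2). Of these markers 4 lay lower without overlap, namely the collagens Col1a1, Col1a2 and Col3a1 and the smooth muscle actin Acta2, and 1 lay higher. Over all 11507 genes tested, 2195 lay lower and 1703 higher without overlap. Col1a1 was 1.53, 8.39 and 1.49 RPKM in Lpin1+/+ and 0.248, 0.384 and 0.382 in Lpin1-/-, with WT refed 2 the highest, and Col1a1 and Col3a1 passed with a pseudocount of 0.1 (limma adjusted p = 0.0489 and 0.0396). The part of these cell types in the results above was not tested. Skeletal muscle markers summed to at most 1.71 RPKM and pancreatic acinar markers to at most 0.161.

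Genes of the splicing machinery were altered in refed liver at the same share as all genes tested. Of 45 SR proteins, hnRNPs and branch site factors, 2 rose and 1 fell (6.67%, against 6.67% of all genes tested), with a median of 0.02. Tra2a, an activator of exon inclusion, was 12.4, 9.24 and 12.3 RPKM in Lpin1+/+ and 3.32, 3.47 and 2.72 in Lpin1-/- (log2 fold change -1.56, SE 0.20, limma adjusted p = 0.00197). In the fast the difference had the opposite sign (0.92, limma adjusted p = 0.00934), and the effects differed between states (contrast -2.48, limma adjusted p = 0.00379). Hnrnpll and Hnrnpdl were 2.43-fold and 2.14-fold higher, and Hnrnpll lost the call without WT refed 2 (limma adjusted p = 0.0551). None of 10 splicing factors that the study follows passed, a list chosen by the study on these samples and no independent evidence. The largest machines of the cell showed no altered gene: 82 cytosolic ribosomal proteins had a median log2 fold change of -0.12, 77 subunits of the respiratory chain and ATP synthase 0.10, and 38 proteasome subunits -0.06. Gnl3 rose as 1 of 24 genes of ribosome biogenesis (4.17%), 22 of which had a positive estimate, and lost the call without WT refed 2 (limma adjusted p = 0.136) and with the replicate block (limma adjusted p = 0.0718). Among 16 cell cycle genes (6.25% altered) Ccnd1, which encodes cyclin D1, was 4.05, 25.8 and 5.58 RPKM against 0.789, 0.771 and 0.371 and fell with or without WT refed 2 (log2 fold change -1.82 and limma adjusted p = 0.00835 without it). None of 18 hepatocyte transcription factors passed.

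**Figure D5:**
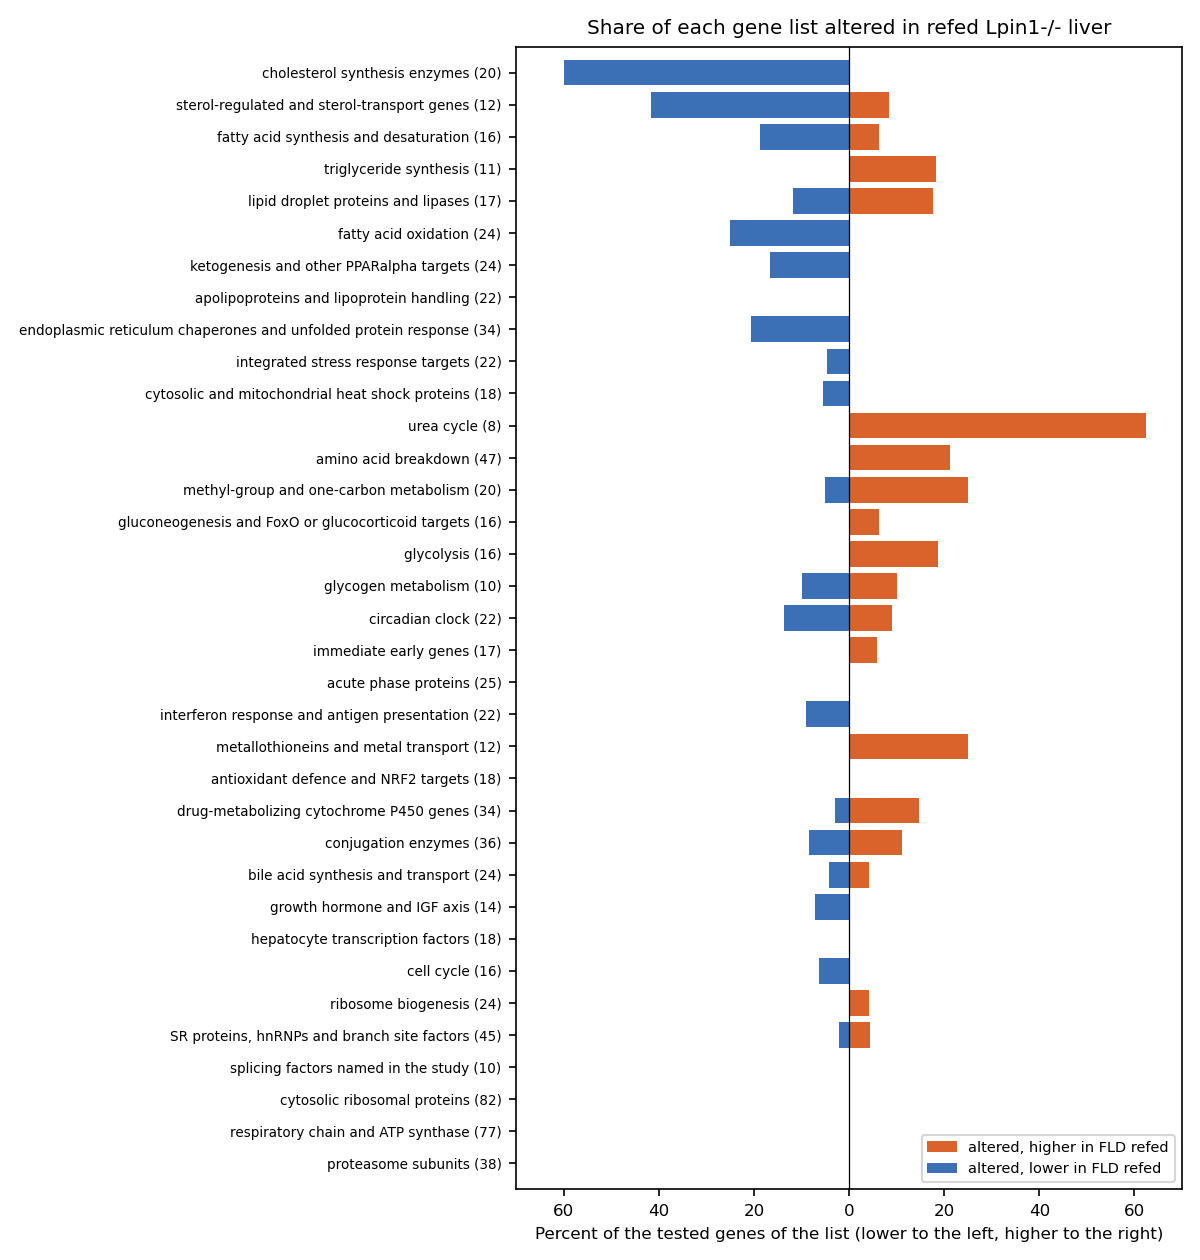
Percent of the tested genes of each of 35 gene lists that were altered in refed Lpin1-/- liver, lower to the left and higher to the right, with the number tested in parentheses. Over all 11507 genes tested 2.6% were higher and 4.07% lower; the urea cycle (5 of 8 higher) and cholesterol synthesis (12 of 20 lower) have the longest bars.

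The refed and fasted genotype differences shared part of their genes. Of the 767 altered in refed liver, 390 were altered in the same direction between fasted genotypes (50.8% of the refed and 18.0% of the fasted calls), and 18 were altered in opposite directions. The contrast between states was past the threshold for 43 of the 767, with 21 higher and 22 lower in refed Lpin1-/-. Besides those named, Zfp207, a spindle assembly and zinc finger protein, had the smallest adjusted p (chosen after its values were seen). It was 26.9, 26.7 and 27.8 RPKM in refed Lpin1+/+ and 57.1, 66.7 and 58.8 in refed Lpin1-/-, and its mean was 31.3 and 10.1 in the fast (contrast 2.68, limma adjusted p = 0.00101). Slc20a1, a phosphate carrier chosen in the same way, fell 2.55-fold in refed liver and was higher in the fast (contrast -3.25, limma adjusted p = 0.00259).

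A few genes were near the limit of detection in one genotype. Under 0.5 RPKM in all Lpin1+/+ and over 1 in all Lpin1-/- libraries were 9 genes, which are Cux2, Hspa2, Inhbb, Map3k6, Ppp1r3g, Rasd1, Slc34a2, Slc4a9 and Tg, and 13 genes had the reverse pattern, with Col1a1 and Gbp10 among them. Altered genes lay on every autosome, from 4.64% of the genes tested on chromosome 12 to 8.88% on chromosome 10, and on the X chromosome (4.21%). Of the 8 other tested genes within 2 Mb of Lpin1, Pdia6 was altered. The neighbor Pqlc3 was 0.397, 2.51 and 0.355 RPKM in Lpin1+/+ and 0.261, 0.160 and 0.0798 in Lpin1-/- and did not pass (log2 fold change -0.69, limma adjusted p = 0.231), with WT refed 2 the highest, and E2f6 and Rock2 nearby had log2 fold changes of 0.07 and -0.20.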

How the data were processed

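Total liver RNA was sequenced from 12 mice, 3 in each of 4 groups, as 1 stranded library per mouse with paired reads of 69 bases. The authors aligned the reads to GRCm38 with HISAT2 (2.0.5), counted them per gene with HTSeq (0.6.0) and deposited the values as RPKM for 22456 genes. DESeq2 (1.20.0) is also named in the submitters' processing notes. The deposited tables of exon skipping and of enriched terms hold the authors' own comparisons and were not used here. RPKM are not counts, so log2(RPKM + 1) was fitted with limma (3.58.1, trended prior, R 4.3.3) over the 4 groups with 8 residual degrees of freedom. The 11507 genes whose mean over all libraries reached 0.5 RPKM were tested, and p-values were adjusted over all of them by the Benjamini-Hochberg method at a threshold of 0.05. With 3 mice against 3 an exact permutation test of a single value cannot go below p = 0.1, and the limma p-values rest on spread pooled over genes and groups. The fit was tested on simulated data.

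Same-numbered refed libraries deviated together from their group means (correlations 0.186, 0.297 and 0.162), but no label names a shared litter or day. With 3 libraries in each group these values cannot establish a pairing. The main fit did not pair the samples, and the replicate number entered as a block only in alternative fits. Alternatives were a pseudocount of 0.1, no filter, a minimum of 5 RPKM, rescaling by the median ratio, a replicate block, the 6 refed libraries alone, a fold threshold, and leaving out each library. The replicate block on the 6 refed libraries alone was added after seeing the data. Genes named are the 3 lipins, the 12 altered genes with the largest log2 fold change in each direction with no overlap and a higher mean of at least 1 RPKM, and up to 6 members of each list with the smallest adjusted p, plus members that show what did not pass. The comparison and the 47 gene lists were chosen with earlier results of these data known. Promoter windows were taken from RefSeq (GRCm38.p6) by symbol, and gene positions from GENCODE M21, which matched 11163 of the tested genes. Results for some genes of the lists are not reported here.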

Additional observations from a re-analysis of the deposited data

Results flagged for a closer look

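For the 7 genes given here the genotype difference in refed liver differed from that in fasted liver by the limma contrast between states, on the log2(RPKM + 1) scale. Fdps, Cyp51, Zfp207 and Slc20a1, named above, passed this contrast too. Among sterol genes the contrast was -4.81 for Insig1 (limma adjusted p = 0.00332), -4.23 for Msmo1 (limma adjusted p = 0.0102), -2.28 for Mvd (limma adjusted p = 0.019) and -1.88 for Fdft1 (limma adjusted p = 0.0325). Nrep was lower in Lpin1-/- in both states and more so after refeeding, with a contrast of -1.78 (limma adjusted p = 0.0336). Tra2a was lower in refed and higher in fasted Lpin1-/- liver, with a contrast of -2.48 (limma adjusted p = 0.00379). Ppp1r3g was higher in both states and less so after refeeding, with a contrast of -3.07 (limma adjusted p = 0.0372).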

How the results depend on the processing

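The count of altered genes was 438 (178 higher, 260 lower) when an absolute log2 fold change above 1 was required as well, and 302 genes were lower with the 6 refed libraries alone and a replicate block. Leaving out 1 library gave 242 to 1046 altered genes, 111 to 416 higher and 131 to 630 lower. The count of genotype differences that differed between fasted and refed liver was the least stable. It went from 147 to 83 with no filter, 306 after rescaling and 81 with the replicate block, and to 30 to 191 with 1 library left out, with 61 without WT refed 2, 30 without FLD refed 3 and 31 without FLD refed 2. Separate ranges were found for 2593 genes (38.4%) at a minimum of 5 RPKM. A smaller set of genes is tested under the filters and fewer samples enter the fits without a library, and the cause of the other shifts was not tested.

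With the replicate block 526 genes were altered (207 higher, 319 lower), of which 509 were among the 767, so the block moved no other count over all genes by more than 1.5 times, and the named genes whose call it ended are given beside their values. Over the altered genes that the rule names, 1608 of the values under the alternatives stayed past the threshold and 381 did not, and none changed direction. After rescaling by the median ratio 92 of these 105 genes kept the call, and losses from rescaling are not marked beside the values above. The endoplasmic reticulum list then had 5 altered genes, against 7 in the main fit. For the 3 lipins, which were not altered, 4 values passed, all of them of Lpin1, and 51 did not. No count per library was used here, so depth is an estimate, and genes near 0 RPKM are the least precise.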
